A study of Mus musculus with 8 samples.

Results

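The Slc25 genes encode a family of membrane carriers, most of which sit in the mitochondrial inner membrane. They were taken as every gene whose symbol on the array begins with Slc25a and that has a probe set annotated to it alone. Of 18193 genes with such a probe set, 44 were Slc25 genes, read by 93 probe sets. Where a gene had several, the one of highest mean level was kept. Of the 44, 34 exceeded a log2 value of 5 in 4 or more arrays and were tested among 9607 genes, and 10 did not.

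The data came from ventricles of male mice on an FVB background, 8 to 12 weeks old, that had undergone ascending aortic banding 1 week earlier, an operation that raises the pressure against which the left ventricle ejects. The 4 mice labelled TG overexpressed CHF1/Hey2, a hairy-related transcriptional repressor, in the myocardium under the mlc2v promoter, and the 4 mice labelled WT were wild type. Total RNA of each heart went on 1 Affymetrix Mouse Genome 430 2.0 array. All 8 hearts were banded, and unbanded hearts were not analysed here. The arrays hold ventricle RNA of all cell types, so fewer cells of a type and less RNA per cell cannot be told apart. The comparison asked whether transcripts of the carriers differ between banded TG and banded WT hearts.

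Most carriers of this family are built from repeats of paired membrane helices and pass small solutes through an inner membrane that is otherwise closed to them. In heart muscle they bring ADP and phosphate to the ATP synthase and send ATP out, let fatty acids in as carnitine esters, and run the malate-aspartate shuttle that carries reducing equivalents of cytosolic NADH into the matrix. Others supply amino acids, iron, coenzyme A, folate, NAD and nucleotides for chemistry inside the organelle. Their genes lie in the nucleus, and the proteins are imported after translation.

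The 8 arrays were not equally alike. Across the 9607 genes, the correlation r of TG_2 with any other array lay between 0.788 and 0.840, that of TG_3 with the 6 remaining arrays between 0.935 and 0.964, and those of the 6 with each other between 0.977 and 0.992. They describe likeness over genes, which are no replicates of a mouse. Values without 1 or both of these arrays therefore stand beside the differences. Hey2 itself, at 5.87, 5.70, 6.26 and 6.02 in TG_1 to TG_4, against 5.89, 5.96, 5.68 and 6.76 in WT_1 to WT_4, did not separate the groups (difference -0.11, exact two-sided permutation p = 0.771), so it did not check the labels, and the files do not say whether the transgene's RNA binds its probes. TG below means the arrays labelled transgenic.

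For no Slc25 gene did the difference between TG and WT hearts pass the test against the spread between mice. With limma and Benjamini-Hochberg adjustment over 9607 genes, 0 of the 34 members passed at 0.05, and 0% of all genes did. The members' adjusted p lay between 0.813 and 0.999. Before adjustment, limma's p was under 0.05 for 0 members as well, against 1.59% of all genes. In 0 of the 34 did the 4 TG arrays all lie on 1 side of the 4 WT arrays, which held for 2.48% of all genes. The smallest exact two-sided permutation p of a member was 0.0571, where 4 against 4 arrays cannot go below 0.0286. The largest difference, that of Slc25a29, was 0.78 on the log2 scale (95% confidence interval -0.12 to 1.69).

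The mean was higher in TG for 20 of the 34 members and lower for 14, close to the background, in which 57% of all genes were higher and 43% lower. The median difference of the 34 was 0.15, beside 0.061 over all genes tested. By array, the members' median lay at 0.12, 0.24, 0.21 and -0.012 from the WT mean in TG_1 to TG_4, against 0.087, -0.014, -0.094 and -0.0075 in WT_1 to WT_4. Over all genes the same medians were 0.030, 0.29, -0.018 and 0.069 in TG_1 to TG_4. By their median the carriers thus stood highest in TG_2, where genes as a whole stood higher still, and in TG_3, where genes as a whole did not. By count the order was another. The members above the WT mean numbered 29, 19, 23 and 16 in TG_1 to TG_4, against 25, 15, 11 and 14 in WT_1 to WT_4. Without TG_2 and TG_3 the members' median difference was 0.049, beside 0.051 over all genes, with 24 of 34 members and 65.3% of all genes higher. It was 0.094 without TG_2 alone and 0.093 without WT_3 alone.

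**Figure D1:**
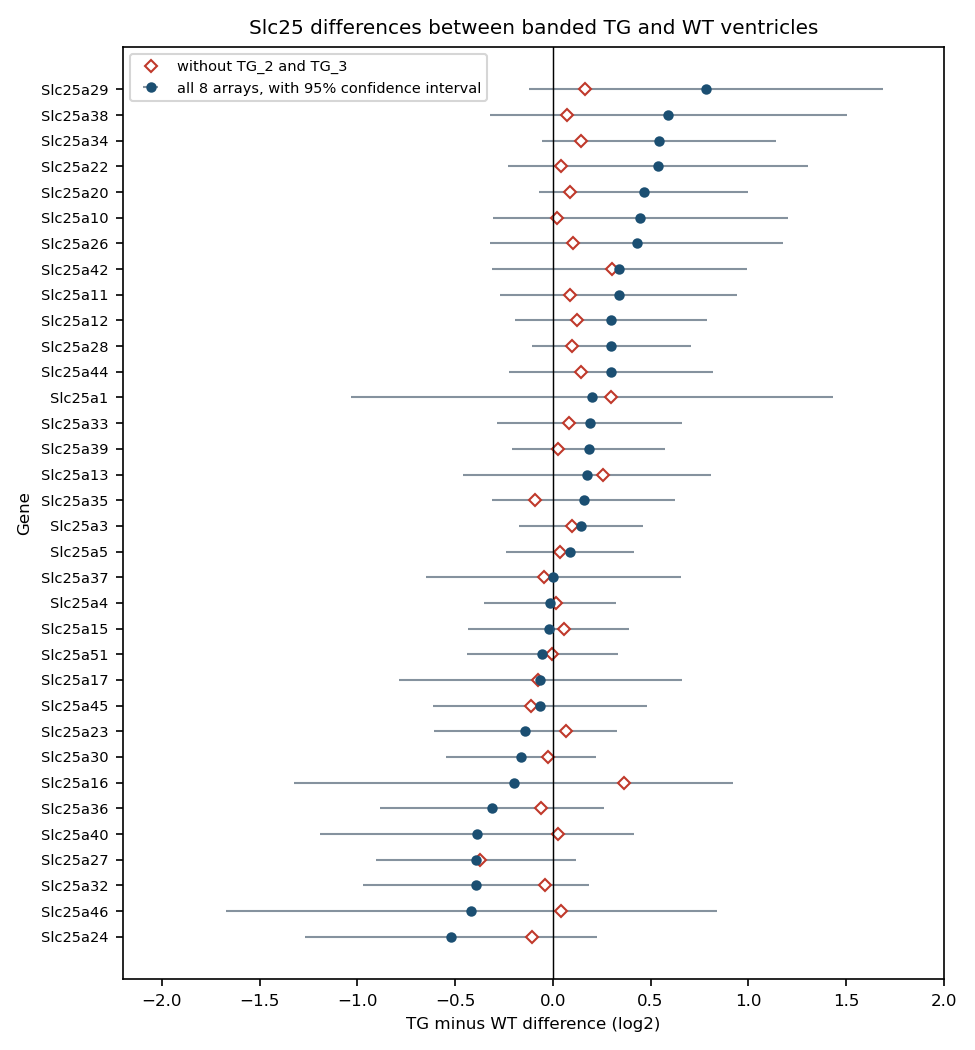
TG minus WT difference of each of the 34 Slc25 genes on the log2 scale, with filled circles and bars for the estimate and its 95% confidence interval from limma over all 8 arrays and open diamonds for the estimate without TG_2 and TG_3. Every bar crosses 0, and for the 12 genes with the highest differences the diamond lies nearer 0 than the circle.

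Single arrays carried the widest values. In TG_2, 12 of the 34 members lay over 1 log2 unit, or 2-fold, from the WT mean, and 38.3% of all genes did. Of these members 6 lay above, against 17.8% of all genes, and 6 below, against 20.5%. In TG_3 there were 4 such members, against 8.72% of all genes. In each of the other 6 arrays there were 0, where all genes gave 0.947% in TG_1, 0.593% in TG_4, 0.656% in WT_1, 0.354% in WT_2, 0.437% in WT_3 and 0.156% in WT_4. The median SD of a member was 0.47 over the TG arrays and 0.15 over the WT arrays, beside 0.49 and 0.19 for all genes. TG_3 held the highest of the 8 values for 13 members, and 15.9% of all genes had their highest value there. Within the WT group WT_3 held the lowest value for 17 of the 34 members, and for 24.6% of all genes.

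**Figure D2:**
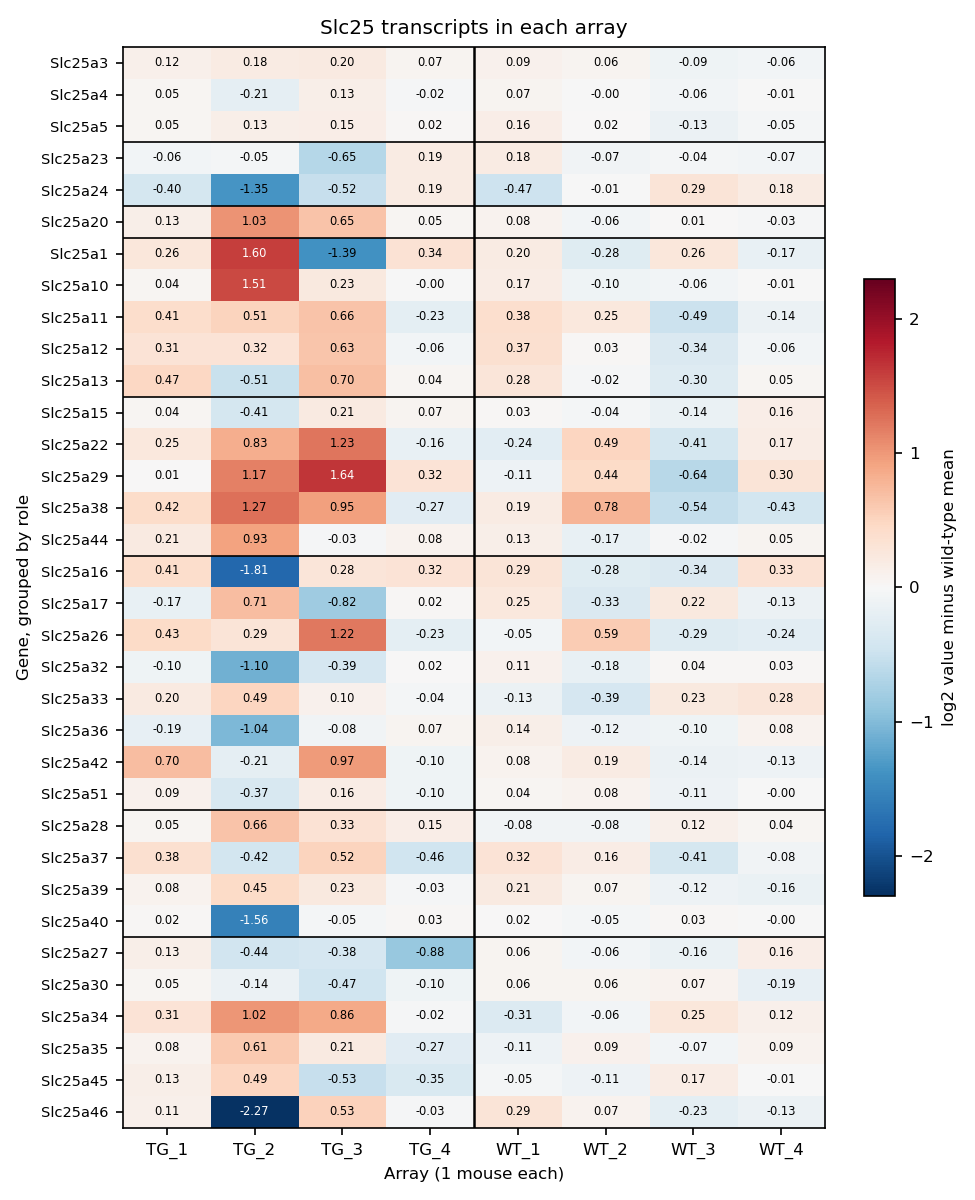
The log2 value of each Slc25 gene in each array minus its WT mean, with TG_1 to TG_4 on the left and WT_1 to WT_4 on the right and genes grouped by role. The deepest colours stand in TG_2, from -2.27 for Slc25a46 to 1.60 for Slc25a1, and in TG_3, where Slc25a29 reached 1.64, while the rows of Slc25a3, Slc25a4 and Slc25a5 are nearly blank.

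The 3 measured carriers that serve the ATP synthase spanned less over the 8 arrays than any other member, as read by their kept probe sets, which lie near the top of the scale. Slc25a4, the ADP/ATP carrier that prevails in heart and skeletal muscle, had log2 values of 15.58, 15.32, 15.66 and 15.51 in TG_1 to TG_4, against 15.60, 15.53, 15.47 and 15.52 in WT_1 to WT_4. All 8 arrays lay within 0.34 of each other, and the lowest was TG_2. The spans of its dimmer probe sets above the filter reached 1.65. The difference was -0.014 (95% confidence interval -0.35 to 0.32), and 0.0030 with quantile normalization. Slc25a5, the ADP/ATP carrier that most tissues share, stood at 13.61, 13.70, 13.72 and 13.59 in TG_1 to TG_4, against 13.73, 13.58, 13.44 and 13.52 in WT_1 to WT_4. Its groups overlapped, with WT_1 the highest array and WT_3 the lowest, and the difference was 0.089, or 0.035 without TG_2 and TG_3. Slc25a3, which carries phosphate, gave 14.57, 14.63, 14.64 and 14.52 in TG_1 to TG_4, against 14.54, 14.51, 14.36 and 14.38 in WT_1 to WT_4. Here TG_1, TG_2 and TG_3 lay above all 4 WT arrays and TG_4 lay below WT_1, and the difference was 0.14 (SE 0.14; exact two-sided permutation p = 0.0571; limma adjusted p = 0.813). It was 0.096 without TG_2 and TG_3. A second, dimmer probe set of Slc25a3 spanned 2.97. Slc25a31, the ADP/ATP carrier of male germ cells, had values between 2.62 and 2.77 and was not tested.

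The 2 measured carriers that exchange ATP-Mg for phosphate under the control of cytosolic calcium had lower TG means. Slc25a24 had 7.89, 6.94, 7.77 and 8.48 in TG_1 to TG_4, against 7.82, 8.28, 8.59 and 8.47 in WT_1 to WT_4. TG_2 was the lowest array, but TG_4 lay above 3 of the 4 WT arrays and WT_1 lay below TG_1, so the difference of -0.52 (95% confidence interval -1.27 to 0.23) did not pass. It was -0.11 without TG_2 and TG_3. Slc25a23, its close relative, had 9.23, 9.24, 8.64 and 9.48 in TG_1 to TG_4, against 9.47, 9.22, 9.25 and 9.22 in WT_1 to WT_4. Only TG_3 stood clearly below the others, the difference was -0.14, and without TG_3 it was 0.028. Slc25a25 and Slc25a41, further carriers of ATP-Mg and phosphate, stayed below 5 in every array and were not tested.

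Slc25a20, which exchanges acylcarnitine for free carnitine and so admits fatty acids to oxidation, had values of 10.53, 11.44, 11.06 and 10.46 in TG_1 to TG_4, against 10.49, 10.35, 10.41 and 10.37 in WT_1 to WT_4. TG_2 and TG_3 stood apart from the rest, while TG_1, TG_4 and the 4 WT arrays lay within 0.19 of each other. The group values were 10.87 ± 0.46 in TG arrays and 10.41 ± 0.062 in WT arrays (mean ± SD of 4 arrays each), a difference of 0.46 (95% confidence interval -0.071 to 1.0; exact two-sided permutation p = 0.0571; limma adjusted p = 0.813). By this probe set all 4 TG arrays lay above the WT mean. A second probe set of the gene gave a difference of 0.46 too, but spread its arrays otherwise. There TG_4, at 9.62, lay below the WT mean of 9.90, and the WT arrays ran from 9.55 to 10.18. Without TG_2 and TG_3 the difference was 0.089.

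All 5 measured carriers of the malate-aspartate shuttle and of di- and tricarboxylates had higher TG means, with differences between 0.17 and 0.45 and none past the test. Slc25a11, which exchanges oxoglutarate for malate, stood at 12.59, 12.69, 12.84 and 11.95 in TG_1 to TG_4, against 12.56, 12.42, 11.69 and 12.04 in WT_1 to WT_4. TG_1, TG_2 and TG_3 lay above all WT arrays, but TG_4 lay below 3 of them, and the difference of 0.34 was smaller than the SD of either group (0.39 each), and 0.09 without TG_2 and TG_3. Slc25a12, the aspartate-glutamate carrier of muscle and brain, gave 11.96, 11.96, 12.28 and 11.59 in TG_1 to TG_4, against 12.02, 11.68, 11.31 and 11.58 in WT_1 to WT_4. TG_3 was its highest array and WT_3 its lowest, with a difference of 0.30, or 0.12 without TG_2 and TG_3. Slc25a13, the aspartate-glutamate carrier of liver, gave 10.45, 9.47, 10.68 and 10.01 in TG_1 to TG_4, against 10.25, 9.96, 9.67 and 10.02 in WT_1 to WT_4. It was lowest in TG_2 and highest in TG_3, and its difference of 0.17 was 0.40 without TG_2 and 4.1e-05 without TG_3. In the WT group these 3 genes shared 1 order at the ends, with WT_1 the highest array and WT_3 the lowest.

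Slc25a1, which exports citrate for lipid synthesis, held the widest disagreement between TG_2 and TG_3. Its values were 6.26, 7.60, 4.61 and 6.34 in TG_1 to TG_4, against 6.20, 5.72, 6.26 and 5.83 in WT_1 to WT_4, which put TG_2 at 1.60 and TG_3 at -1.39 from the WT mean. The difference was 0.20 over all arrays, -0.26 without TG_2, 0.73 without TG_3 and 0.30 without both. Its sign thus depended on which of these arrays were kept. Slc25a10, the dicarboxylate carrier, had 5.76, 7.23, 5.95 and 5.72 in TG_1 to TG_4, against 5.89, 5.62, 5.66 and 5.71 in WT_1 to WT_4. TG_2 alone stood apart, and the difference was 0.45 with it and 0.092 without it.

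Among carriers of amino acids, 4 of 5 measured members had higher TG means, with a median difference of 0.54, and none passed. Slc25a29, which carries the basic amino acids, had 7.19, 8.35, 8.82 and 7.50 in TG_1 to TG_4, against 7.07, 7.63, 6.54 and 7.49 in WT_1 to WT_4. TG_2 and TG_3 lay above all WT arrays, TG_1 lay below 2 of them, and WT_3 was the lowest array. The group values were 7.97 ± 0.75 in TG arrays and 7.18 ± 0.49 in WT arrays (mean ± SD of 4 arrays each), a difference of 0.78 (exact two-sided permutation p = 0.171; limma adjusted p = 0.813). All 5 probe sets of Slc25a29 that exceeded the filter had higher TG means, with differences between 0.74 and 0.97. Without TG_2 and TG_3 the difference was 0.16, and without TG_3 alone 0.50.

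Slc25a22, a glutamate carrier, had 7.96, 8.54, 8.94 and 7.55 in TG_1 to TG_4, against 7.47, 8.20, 7.30 and 7.88 in WT_1 to WT_4. Its high arrays were again TG_3 and TG_2, followed by WT_2, and its difference of 0.54 was 0.043 without TG_2 and TG_3. Slc25a38, which carries glycine for the first step of haem synthesis, gave 6.64, 7.49, 7.17 and 5.96 in TG_1 to TG_4, against 6.41, 7.0, 5.68 and 5.80 in WT_1 to WT_4. WT_2 followed TG_2 and TG_3, above TG_1 and TG_4, and WT_3 and WT_4 were the lowest arrays. The difference was 0.59, and 0.075 without TG_2 and TG_3. The ornithine carrier Slc25a15 and Slc25a44, a carrier of branched-chain amino acids, differed by -0.022 and 0.30, and without TG_2 by 0.11 and 0.087. Slc25a2 and Slc25a18, further carriers of ornithine and glutamate, had values between 1.90 and 2.28 and were not tested.

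**Figure D3:**
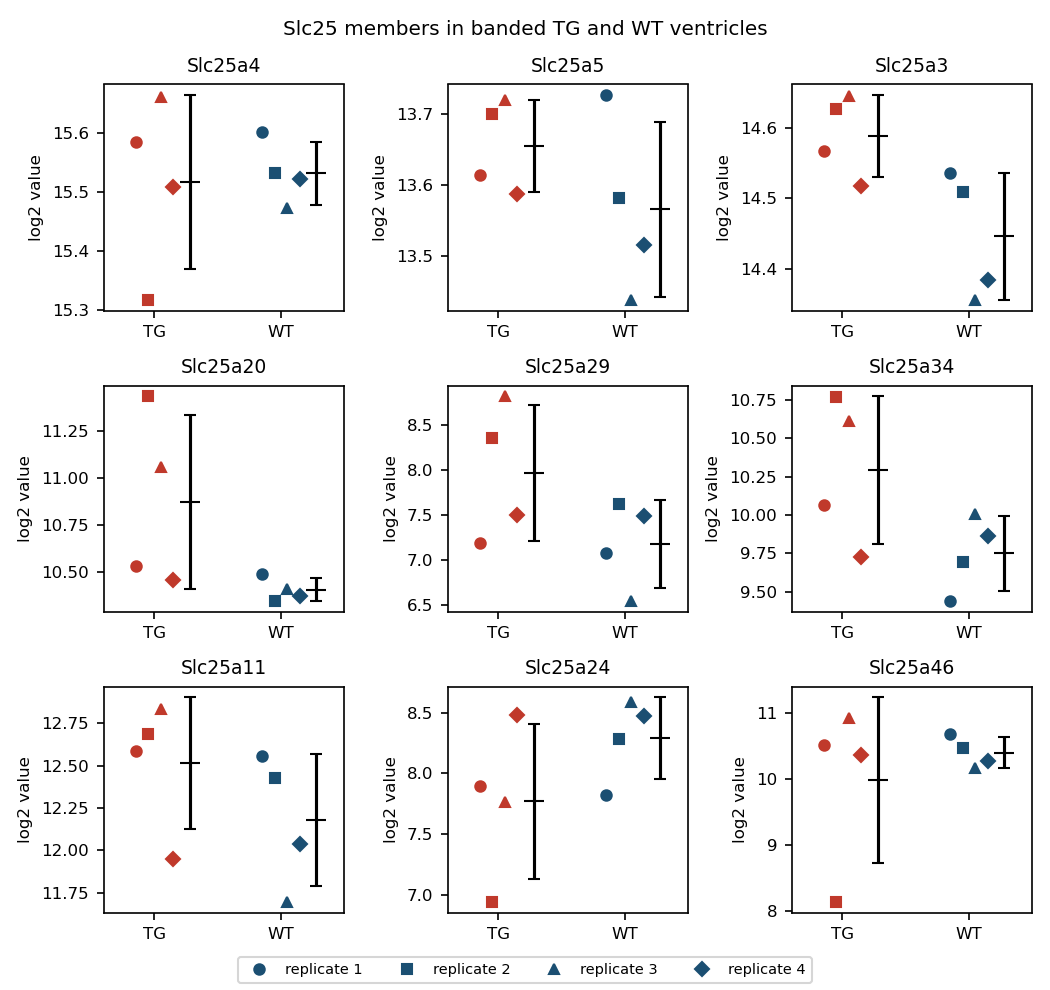
Log2 values of 9 Slc25 genes, with 1 point for each array, the TG group left of the WT group in each panel, and the mean ± SD (n = 4) beside the points. The scale differs between panels: the values of Slc25a4 span 0.34, and those of Slc25a46 run from 8.13 in TG_2 to 10.93 in TG_3.

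Carriers of cofactors and nucleotides were split, with 3 of 8 higher in TG and 5 lower and a median difference of -0.059. Slc25a42, which brings coenzyme A into the matrix, had 9.15, 8.24, 9.42 and 8.35 in TG_1 to TG_4, against 8.53, 8.63, 8.31 and 8.32 in WT_1 to WT_4. TG_1 and TG_3 lay above all WT arrays and TG_2 below all of them. Its difference of 0.34 was 0.53 without TG_2, 0.13 without TG_3 and 0.30 without both, where TG_1 stood at 0.70 and TG_4 at -0.10 from the WT mean. Slc25a16, a carrier tied to coenzyme A in the matrix, had 9.0, 6.78, 8.88 and 8.92 in TG_1 to TG_4, against 8.89, 8.32, 8.26 and 8.92 in WT_1 to WT_4. TG_2 lay 1.48 below the next lowest array, and the difference was -0.20 with it and 0.34 without it.

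Slc25a36, a carrier of pyrimidine nucleotides, gave 9.90, 9.06, 10.02 and 10.16 in TG_1 to TG_4, against 10.24, 9.97, 9.998 and 10.17 in WT_1 to WT_4. The same array was the lowest, and without it the difference of -0.31 was -0.068. Slc25a32, which carries folate or flavin adenine dinucleotide, gave 6.31, 5.30, 6.01 and 6.42 in TG_1 to TG_4, against 6.51, 6.23, 6.44 and 6.44 in WT_1 to WT_4, with TG_2 and TG_3 below all WT arrays. Its difference was -0.39, and -0.16 without TG_2. The other 4 were Slc25a26, which carries S-adenosylmethionine, at 0.43, Slc25a33, a second pyrimidine nucleotide carrier, at 0.19, Slc25a51, the NAD carrier, at -0.054, and Slc25a17, a carrier of peroxisomes, at -0.064. For Slc25a26 TG_3 stood at 1.22 from the WT mean, and without that array the difference was 0.17. That of Slc25a33 was 0.081 without TG_2 and TG_3, and without TG_2 alone those of Slc25a51 and Slc25a17 were 0.052 and -0.32.

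Both mitoferrins, which bring iron to haem and iron-sulphur cluster synthesis, were measured. Slc25a28, mitoferrin 2, had 8.05, 8.67, 8.34 and 8.15 in TG_1 to TG_4, against 7.93, 7.92, 8.12 and 8.05 in WT_1 to WT_4. TG_2, TG_3 and TG_4 lay above all WT arrays and TG_1 lay below WT_3. The group values were 8.30 ± 0.27 in TG arrays and 8.0 ± 0.098 in WT arrays (mean ± SD of 4 arrays each), a difference of 0.30 (exact two-sided permutation p = 0.0571; limma adjusted p = 0.813), or 0.099 without TG_2 and TG_3. Slc25a37, mitoferrin 1, which developing red cells use most, had 8.13, 7.33, 8.27 and 7.29 in TG_1 to TG_4, against 8.07, 7.92, 7.34 and 7.67 in WT_1 to WT_4. Its TG arrays held the 2 highest and the 2 lowest values of the 8, and the difference was 0.0030, or -0.022 with median centring. Alas2, the erythroid enzyme of haem synthesis and the 1 measured of 5 erythroid markers, had 7.59, 8.58, 8.63 and 5.67 in TG_1 to TG_4, against 8.05, 7.06, 7.36 and 6.93 in WT_1 to WT_4; like Slc25a37 it was lowest in TG_4 and highest in TG_3. In TG_2 they went apart, with Alas2 at 1.23 and Slc25a37 at -0.42 from the WT mean. The part of blood cells in these values was not tested.

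Slc25a39, which takes up glutathione, stood at 12.99, 13.35, 13.14 and 12.88 in TG_1 to TG_4, against 13.12, 12.98, 12.79 and 12.75 in WT_1 to WT_4, and all 4 of its probe sets above the filter had higher TG means. Its difference was 0.18, and 0.095 without TG_2. With its probe sets averaged it was 0.30, and 0.48 by the 1 probe set above the filter whose name does not end in _x_at or _s_at. Slc25a40, its paralogue, gave 7.58, 6.0, 7.51 and 7.59 in TG_1 to TG_4, against 7.58, 7.52, 7.60 and 7.56 in WT_1 to WT_4. The 7 arrays other than TG_2 lay within 0.081 of each other. With TG_2 the difference was -0.39, and without it 0.0013.

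Of the relatives of the uncoupling proteins and the carriers with no firmly assigned cargo, 2 of 6 were higher in TG. Slc25a34, an orphan carrier, had the smallest unadjusted limma p of the family (0.0699). Its values were 10.06, 10.77, 10.61 and 9.72 in TG_1 to TG_4, against 9.44, 9.69, 10.003 and 9.86 in WT_1 to WT_4. TG_1, TG_2 and TG_3 lay above all WT arrays, and TG_4 lay below WT_3 and WT_4. The group values were 10.29 ± 0.48 in TG arrays and 9.75 ± 0.24 in WT arrays (mean ± SD of 4 arrays each), a difference of 0.54 (95% confidence interval -0.055 to 1.14; exact two-sided permutation p = 0.114; limma adjusted p = 0.813), or 0.15 without TG_2 and TG_3. Slc25a27, also called uncoupling protein 4 and best known from brain, had 6.41, 5.83, 5.90 and 5.40 in TG_1 to TG_4, against 6.34, 6.22, 6.12 and 6.43 in WT_1 to WT_4. TG_2, TG_3 and TG_4 lay below all WT arrays and TG_1 lay above 3 of them, for a difference of -0.39. It was -0.23 without TG_4. Without TG_2 and TG_3 it was -0.37, where TG_1 stood at 0.13 and TG_4 at -0.88 from the WT mean.

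Slc25a30, the kidney-type relative of the uncoupling proteins, gave 8.04, 7.85, 7.52 and 7.89 in TG_1 to TG_4, against 8.05, 8.05, 8.06 and 7.80 in WT_1 to WT_4. The difference was -0.16, or -0.024 without TG_2 and TG_3, and its 3 probe sets above the filter disagreed in sign, from -0.16 to 0.033. Slc25a46, which sits in the outer membrane and bears on mitochondrial fission and fusion, had 10.51, 8.13, 10.93 and 10.36 in TG_1 to TG_4, against 10.69, 10.47, 10.17 and 10.27 in WT_1 to WT_4. TG_2 lay 2.04 below the next lowest array. It stood at -2.27 from the WT mean, the lowest deviation of any member in any array. The difference was -0.42 with TG_2 and 0.20 without it. The orphans Slc25a35 and Slc25a45 differed by 0.16 and -0.064, and without TG_2 by 0.0078 and -0.25. Slc25a14, Slc25a47, Slc25a48, Slc25a53 and Slc25a54 had values of at most 4.49 and were not tested.

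Several carriers are read by more than 1 probe set, which gives a second reading of the same RNA. Of 12 members with 2 or more probe sets above the filter, 8 had all of them on the same side and 4 did not. Slc25a5 had 8, with differences between 0.049 and 0.19, all higher in TG. The kept probe sets of Slc25a5 and Slc25a39, and that of Slc25a26, carry the suffix _x_at or _s_at. With these the maker marks probes shared with similar sequences or other transcripts, so part of the signal may come from related transcripts. The 3 of Slc25a36 ran from -0.41 to -0.063 and the 2 of Slc25a46 from -0.54 to -0.42. Slc25a3 was split, at 0.14 and -0.62, as was Slc25a51, at -0.054 and 0.28. The 4 of Slc25a4 ran from -0.049 to 0.41, where the highest came from its dimmest probe set, which was 6.95 in TG_3 and between 5.30 and 5.52 in the other 7 arrays.

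The sequences just before the start of transcription are shown for the members with the 3 smallest limma p, which were high in TG_2 and TG_3, and for Slc25a36, which holds both E-boxes. They were searched for CACGTG and CACGCG, E-box letters that hairy-related repressors such as Hey2 are known to bind, and for AAGGTCA, the half-site that oestrogen-related receptors bind, on both strands. The sequences are the 250 bases before the start from RefSeq on GRCm38.p6, 5′ to 3′ on the gene's strand, with matches in capitals. They lie at chr4:141623835-141624084, minus strand for Slc25a34, chr9:108661886-108662135, plus strand for Slc25a20, chr12:108835877-108836126, minus strand for Slc25a29 and chr9:97111042-97111291, minus strand for Slc25a36.
Slc25a34: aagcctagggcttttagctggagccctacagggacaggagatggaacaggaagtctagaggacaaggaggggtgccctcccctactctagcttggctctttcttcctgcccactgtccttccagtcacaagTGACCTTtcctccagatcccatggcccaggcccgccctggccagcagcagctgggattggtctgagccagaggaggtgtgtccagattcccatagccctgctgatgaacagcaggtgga
Slc25a20: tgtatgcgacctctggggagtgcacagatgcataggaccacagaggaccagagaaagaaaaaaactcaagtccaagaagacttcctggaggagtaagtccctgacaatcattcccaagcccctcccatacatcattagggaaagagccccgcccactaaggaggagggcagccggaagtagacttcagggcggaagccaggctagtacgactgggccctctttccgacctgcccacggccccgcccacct
Slc25a29: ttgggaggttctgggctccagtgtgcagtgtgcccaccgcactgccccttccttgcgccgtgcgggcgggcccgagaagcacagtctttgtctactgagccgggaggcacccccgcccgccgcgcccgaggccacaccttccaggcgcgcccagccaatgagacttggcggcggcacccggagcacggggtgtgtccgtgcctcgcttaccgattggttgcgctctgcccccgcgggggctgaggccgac
Slc25a36: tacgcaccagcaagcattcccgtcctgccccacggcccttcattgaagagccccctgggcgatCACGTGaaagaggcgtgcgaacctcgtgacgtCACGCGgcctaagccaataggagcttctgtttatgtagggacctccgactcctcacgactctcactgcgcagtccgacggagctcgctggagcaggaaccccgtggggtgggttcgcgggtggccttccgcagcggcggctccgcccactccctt
Slc25a34 held 1 match to AAGGTCA, read on the opposite strand as TGACCTT, that begins 119 bases before the start. Slc25a36 held CACGTG and CACGCG, beginning 187 and 155 bases before the start and not overlapping, and the windows of Slc25a20 and Slc25a29 held none of the 3 motifs. Of the 34 members, 26 had a window, 30 windows in all. CACGTG was in 5 of these 30 (16.7%), against 6.02% of all 32817 windows, CACGCG in 8 (26.7%), against 7.61%, and AAGGTCA in 1 (3.33%), against 4.08%. The 32817 windows are those of any gene, whether tested here or not, and were not matched for base composition. The shares are therefore no measure of excess over the genes tested. Both E-boxes stood before Slc25a1, Slc25a13, Slc25a15 and Slc25a36, whose TG minus WT differences were 0.20, 0.17, -0.022 and -0.31. A match describes letters and not a bound site.

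The carriers need partners, and none of those measured passed the test. Proteins of this fold are brought across the outer membrane by receptors such as Tomm70a, guided by the small Timm proteins and inserted by the Timm22 complex. Of 13 such import and assembly genes, 11 had a higher TG mean and 2 a lower one, beside the 57% of all genes that were higher, with a median difference of 0.26 and 0 past limma's test. Of the 13, 10 were higher without TG_2 and TG_3, beside 65.3% of all genes. Timm29, a subunit of the Timm22 complex, gave 10.18, 10.80, 10.24 and 9.93 in TG_1 to TG_4, against 10.11, 9.82, 9.81 and 9.76 in WT_1 to WT_4, a difference of 0.42, or 0.19 without TG_2 and TG_3. Timm10, one of the small guides, gave 11.21, 11.47, 11.78 and 11.08 in TG_1 to TG_4, against 11.09, 11.30, 10.80 and 10.88 in WT_1 to WT_4, a difference of 0.37, or 0.13 without them. In both, TG_2 and TG_3 lay above all WT arrays, and for Timm10 WT_2 lay above TG_1 and TG_4. The list's median stood at 0.46 and 0.49 from the WT mean in TG_2 and TG_3 and at 0.066 and 0.060 in TG_1 and TG_4, and the median difference without TG_2 and TG_3 was 0.090. Tomm70a, the receptor itself, was lower in TG by its mean (-0.39), with 8.27 in TG_2 and 9.94 or more in the other 7 arrays, and its difference was 0.13 without TG_2.

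Of 15 measured genes of other transport across the mitochondrial membranes, 13 had a higher TG mean, with a median difference of 0.15 and 0 past the test. Of the 15, 10 were higher without TG_2 and TG_3, beside 65.3% of all genes. Abcb8, an ATP-driven exporter of the inner membrane, gave 8.26, 9.15, 8.40 and 7.74 in TG_1 to TG_4, against 8.02, 7.90, 7.19 and 7.55 in WT_1 to WT_4, a difference of 0.72 (95% confidence interval -0.0061 to 1.45; limma adjusted p = 0.813), and TG_4 lay below WT_1 and WT_2. It was 0.33 without TG_2 and TG_3. Abcb10, a second such exporter, differed by 0.35, or 0.028 without them. The outer membrane channels Vdac1, Vdac2 and Vdac3 differed by 0.097, 0.088 and 0.12, and without TG_2 and TG_3 by 0.042, 0.026 and -0.016. Among 3 measured genes of the carrier fold that bear other names, Mtch2, Mtch1 and Ucp3 differed by 0.23, -0.0035 and 0.27, and without TG_2 and TG_3 by 0.035, -0.079 and 0.58. Ucp3, uncoupling protein 3 of muscle, was 7.15 in TG_1 and at most 6.02 in the other 7 arrays, and its difference was -0.15 without TG_1. The median of the other transport list without TG_2 and TG_3 was 0.026.

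Markers of some other cell types were far from the WT mean in TG_2 or TG_3. Of the 7 heart muscle markers, Myh6 and Tnnt2 lay at 15.33 or more in every array, and Actc1, Tnni3 and Myl2 at 14.72 or more. Actc1 was lowest in WT_4 and Tnni3 in TG_4. Myh6, Tnnt2 and Myl2 were 15.80, 15.33 and 15.08 in TG_2, and at least 15.98, 15.62 and 15.11 in the other arrays. Pln and Ryr2 were lowest in TG_2 too. Pln was 13.22 there and between 14.61 and 14.94 in the other arrays, and Ryr2 was 13.49 there and between 14.02 and 14.51 in the others. Fibroblast markers were lower in TG for 7 of 7, with a median difference of -0.52, and their mean log2 level ran from 11.37 to 13.44 in TG arrays and from 13.24 to 13.52 in WT arrays. They were lower in 5 of 7 without TG_2 and TG_3, with a median of -0.18, and Lum and Dcn were higher. The lowest array was TG_3, at a median of -1.92 from the WT mean. In that array 13 of the 34 carriers had their highest value and 5 their lowest, against 15.9% and 23.5% of all genes. Heart muscle markers stood at a median difference of -0.0066 over 7, with list means of 14.71 to 15.23 in TG arrays and 15.11 to 15.18 in WT arrays. Endothelial markers were higher in 6 of 6, at a median of 0.24, or in 5 of 6 with quantile normalization or median centring, which turn Tek, or without TG_2 and TG_3. Macrophage markers were higher in 2 of 7, at -0.088, and smooth muscle markers in 2 of 5, at -0.026. Leaving out TG_2 and TG_3, macrophage markers were higher in 5 of 7, at 0.035, heart muscle markers in 7 of 7, at 0.065, and smooth muscle markers in 2 of 5, at -0.10. By array, macrophage markers lay at 0.90 in TG_2 and -1.06 in TG_3, endothelial markers at 0.78 and 0.019, smooth muscle markers at 0.84 and -0.099, and heart muscle markers at -0.23 and 0.070. Of 5 fat cell markers Cidea alone was measured, at 0.28, or 0.081 without TG_2 and TG_3, of 5 skeletal muscle markers Ckm and Acta1, at 0.18 and -0.18, which without those arrays were -0.0028 and -0.087, and of 5 lymphocyte markers 0. No marker passed limma's test. The part of cell composition in the carriers' values was not tested.

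**Figure D4:**
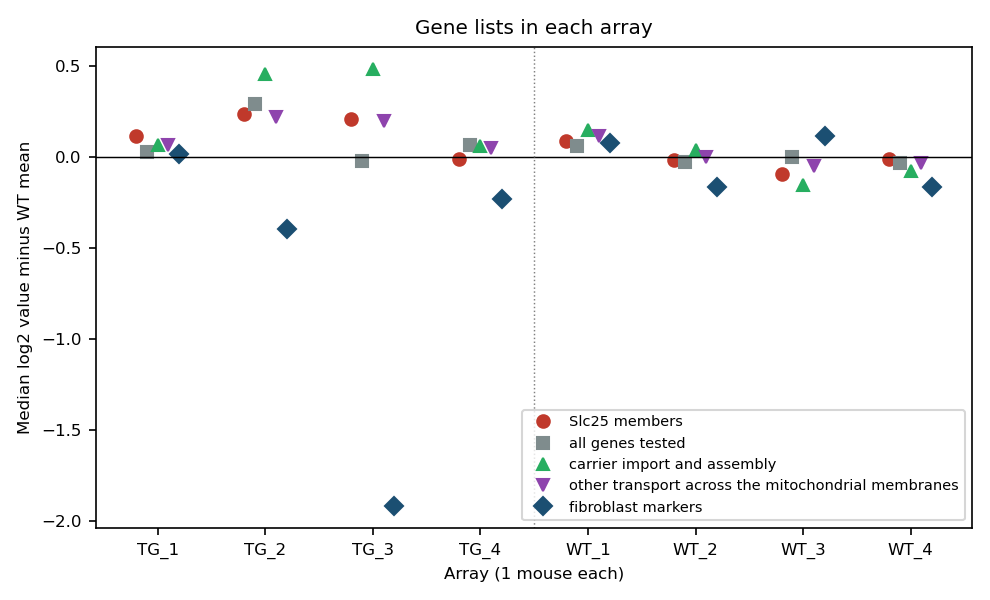
Median log2 deviation from the WT mean in each array, with TG arrays on the left and WT arrays on the right, for the 34 Slc25 genes, all genes tested, carrier import genes, other mitochondrial transport genes and fibroblast markers. The 3 mitochondrial lists lie between 0.20 and 0.49 in TG_2 and TG_3, where the fibroblast markers lie at -0.39 and -1.92. All genes tested lie at 0.29 and -0.018 there, so that in TG_2 the Slc25 genes (0.24) and the other transport genes (0.22) lie below them.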

How the data were processed

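Ventricle RNA of 8 banded mice was measured on 1 Affymetrix Mouse Genome 430 2.0 array each, 4 TG and 4 WT by their titles. The deposited values are log2 expression per probe set, and the submitters' processing notes name GCRMA, with no version given in the sources used here. GCRMA corrects background by base composition and normalizes arrays by quantiles, and dim probe sets end near 1 low value, so that low genes hold little information. The deposited log2 values ran from 0.84 to 16.11, with array medians of 3.33 to 3.43. There is no sequencing depth here: the number of arrays sets the precision. That each array is a separate mouse follows from the labels.

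Of 45101 probe sets, 34958 had 1 gene symbol in the platform annotation, 932 several and 9211 none. The annotation is of an older date, and updating through Entrez identifiers, which matched 34754, changed 0 symbols. Probe sets had to exceed 5 in at least 4 of 8 arrays, and the one with the highest mean was kept for each of 9607 genes. TG minus WT was estimated in R 4.3.3 by limma 3.58.1, using lmFit and eBayes with neither trend nor block, with Benjamini-Hochberg adjustment over all genes. The steps were tested on simulated data in which both groups had each gene's WT spread. The real spread was larger in TG for 89.1% of all genes, so the simulation does not cover arrays such as TG_2. Members, role groups, partner and marker lists were chosen with earlier results of these data known. Each array's values are given for 18 members chosen by role, of which Slc25a25 stayed below the filter. They are also given for the 6 members with the smallest p in each direction and the 3 farthest from the WT mean. The 2 partner genes of a list with the smallest p are named, with each array's values for Timm29, Timm10 and Abcb8. Other named genes were chosen after their values were seen. Alternatives changed the filter, scaling, model, probe set rule, threshold and arrays, and leaving out TG_2 and TG_3 together was added after seeing the data.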

Additional observations from a re-analysis of the deposited data

Results flagged for a closer look

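In 5 of 68 groups of 4 arrays (34 members in TG and in WT), 1 array stood so far from the other 3 that its gap to the nearest, as a share of the group's range, exceeded Dixon's 95% critical value. Chance flags about 1 in 20 groups, and arrays of 1 heart are shared by all members. The share flagged over all genes was not computed, so the count is no trait of the carriers. TG_2 was the highest or lowest of the 8 arrays for 23 of the 34 members and for 77.8% of all genes. TG_2 was the lowest for Slc25a40 (share 0.951, at 6.0 against 7.51 to 7.59) and Slc25a16 (0.944, at 6.78 against 8.88 to 9.0), and the highest for Slc25a10 (0.846, at 7.23 against 5.72 to 5.95). In the WT group WT_4 was the lowest for Slc25a30 (0.939, at 7.80 against 8.05 to 8.06) and WT_1 the highest for Slc25a23 (0.885, at 9.47 against 9.22 to 9.25).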

How the results depend on the processing

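Across 20 alternatives 0 members passed limma's test, and 0 of all genes did except with array weights, which called 1 gene that is no member. With array weights, which give TG_2 a weight of 0.05 and TG_1 one of 6.62, 28 of 34 members and 58.9% of all genes were higher, the smallest adjusted p of a member was 0.215 (Slc25a42), and 6 members (17.6%) had an unadjusted p under 0.05, against 15.9% of all genes. The members' median difference was 0.052 without a filter, where 29 of 44 members and 71.2% of all genes were higher, and 0.049 without TG_2 and TG_3. When single arrays were left out it ran from 0.093 to 0.16 and the count higher from 19 to 25, with 0 members called each time. An unadjusted p under 0.05 was then held by 5 members (14.7%) without TG_4, against 5.63% of all genes, and by 2 (5.88%) without TG_1, against 2.94%. Without a filter it was 1 of 44, against 2.00% of all genes.

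The same replicate numbers stand in both groups, but nothing ties them to shared animals, litters or days, and same-numbered arrays deviated from their group means together at r of 0.30, -0.0056, -0.33 and 0.20. With the replicate block 0 members and 0 genes passed, and the members' median difference was 0.15 with 20 higher.

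Signs turned in 13 of 333 member values under the alternatives that kept all arrays. With array weights the differences were 0.027 for Slc25a15, 0.34 for Slc25a16, 0.048 for Slc25a30, 0.055 for Slc25a4, 0.0057 for Slc25a40, 0.029 for Slc25a45, 0.16 for Slc25a46 and 0.082 for Slc25a51. With a gene's probe sets averaged they were -0.24 for Slc25a3, 0.10 for Slc25a4 and 0.11 for Slc25a51, with quantile normalization 0.0030 for Slc25a4 and with median centring -0.022 for Slc25a37. Without TG_2 and TG_3 they were 0.056 for Slc25a15, 0.36 for Slc25a16, 0.066 for Slc25a23, -0.094 for Slc25a35, -0.044 for Slc25a37, 0.014 for Slc25a4, 0.025 for Slc25a40 and 0.039 for Slc25a46. When single arrays were left out, the differences ran from -0.26 to 0.73 for Slc25a1, -0.098 to 0.11 for Slc25a15, -0.40 to 0.34 for Slc25a16, -0.32 to 0.19 for Slc25a17, -0.25 to 0.028 for Slc25a23, -0.17 to 0.16 for Slc25a37, -0.062 to 0.052 for Slc25a4, -0.53 to 0.0013 for Slc25a40, -0.25 to 0.091 for Slc25a45, -0.73 to 0.20 for Slc25a46 and -0.13 to 0.052 for Slc25a51. The cause was not tested beyond the arrays named.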
